A study of Mus musculus with 6 samples.

Results

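The genes described here are those through which the colon takes up, senses and burns short-chain fatty acids and turns them into ketone bodies. They were taken as the rows of the deposited table whose symbol is *Slc16a1*, *Slc16a3*, *Slc5a8*, *Ffar2*, *Ffar3*, *Hcar2*, *Acads*, *Acat1* or *Bdh1*, which made 9 of 18477 genes. All 9 passed the filter on low counts and are among the 14579 genes tested. Colon tissue came from male C57BL/6 mice, 6 to 8 weeks old when purchased, in 2 groups. The DSS group (n = 3) received PBS by gavage for 14 days, and drank water with 2% dextran sulfate sodium (DSS), which damages the epithelial lining of the colon, over the last 7 days. The DSS+BV group (n = 3) received the same DSS and was given *Bacteroides vulgatus* by gavage in place of PBS alone. Both groups therefore carry the injury, and no library of uninjured colon was analysed here. RNA of each mouse was sequenced as 1 library, so n counts mice, and single values are always listed for mice 1, 2 and 3 of a group in that order.

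Bacteria in the large bowel ferment fibre to acetate, propionate and butyrate. Cells of the colon epithelium take these acids up through monocarboxylate transporters and oxidise butyrate in their mitochondria as a main fuel, and part of the resulting acetyl-CoA can leave as ketone bodies. The same acids also act as signals, through receptors on epithelial cells, enteroendocrine cells, leukocytes and fat cells. *Bacteroides* species are known mainly as makers of acetate, propionate and succinate.

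Library totals lay between 15293276 and 17254343 expected counts, the estimated number of reads per gene. Levels are given as CPM, the counts scaled to library size with TMM factors, which assume that most genes do not change. A log2 fold change above 0 means a higher level in the DSS+BV group, and a gene counted as called when edgeR's quasi-likelihood test gave it an adjusted p under 0.05 and its absolute log2 fold change passed 1. The tissue label was checked with marker lists. The 11 epithelium genes were detected in all 6 libraries and summed to between 13234 and 15629 CPM under DSS alone and to between 16682 and 22160 CPM with the bacterium, so the sums did not overlap. Taken singly, 6 of these 11 genes were higher in every DSS+BV mouse, the other 5 overlapped, and none was called. Over all tested genes, which share these 6 libraries, the deviations from the group mean of DSS+BV 1 correlated with those of DSS 1 (r = 0.267) and DSS 3 (r = 0.370), and with opposite sign to those of DSS 2 (r = -0.572). The deviations of DSS 2 correlated with those of DSS+BV 2 (r = 0.255) and DSS+BV 3 (r = 0.484). Within a group the deviations of a gene sum to 0, so these correlations depend on one another and are not separate observations. In RNA from whole tissue, fewer cells of a type and less RNA per cell cannot be told apart.

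None of the 9 genes was called in either direction in the edgeR test, against 0.0892% of all tested genes called lower and 0% called higher. At an unadjusted p-value under 0.05 there were 2, *Slc16a3* on the lower side (9.12% of all tested genes) and *Bdh1* on the higher side (3.4%), and DESeq2 called 1, *Slc16a3*, on the lower side (1.78%) and none on the higher side (0.291%). The groups did not overlap for these same 2 genes. Over all tested genes, 11.3% had groups that did not overlap in the lower direction and 6.37% in the higher direction, so 1 of 9 each way is near the background. The log2 fold change was above 0 for 6 of the 9, against 48.5% of all tested genes, with a median of 0.31 against -0.01 over all tested genes. When libraries were scaled on the summed epithelium genes in place of TMM, the tally turned to 3 above 0 and 6 below 0. That scaling also moved the median of all tested genes to -0.42, so this tally has a different background from the one with TMM. The 95% interval of the fold change held 0 for 7 of the 9.

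**Figure D1:**
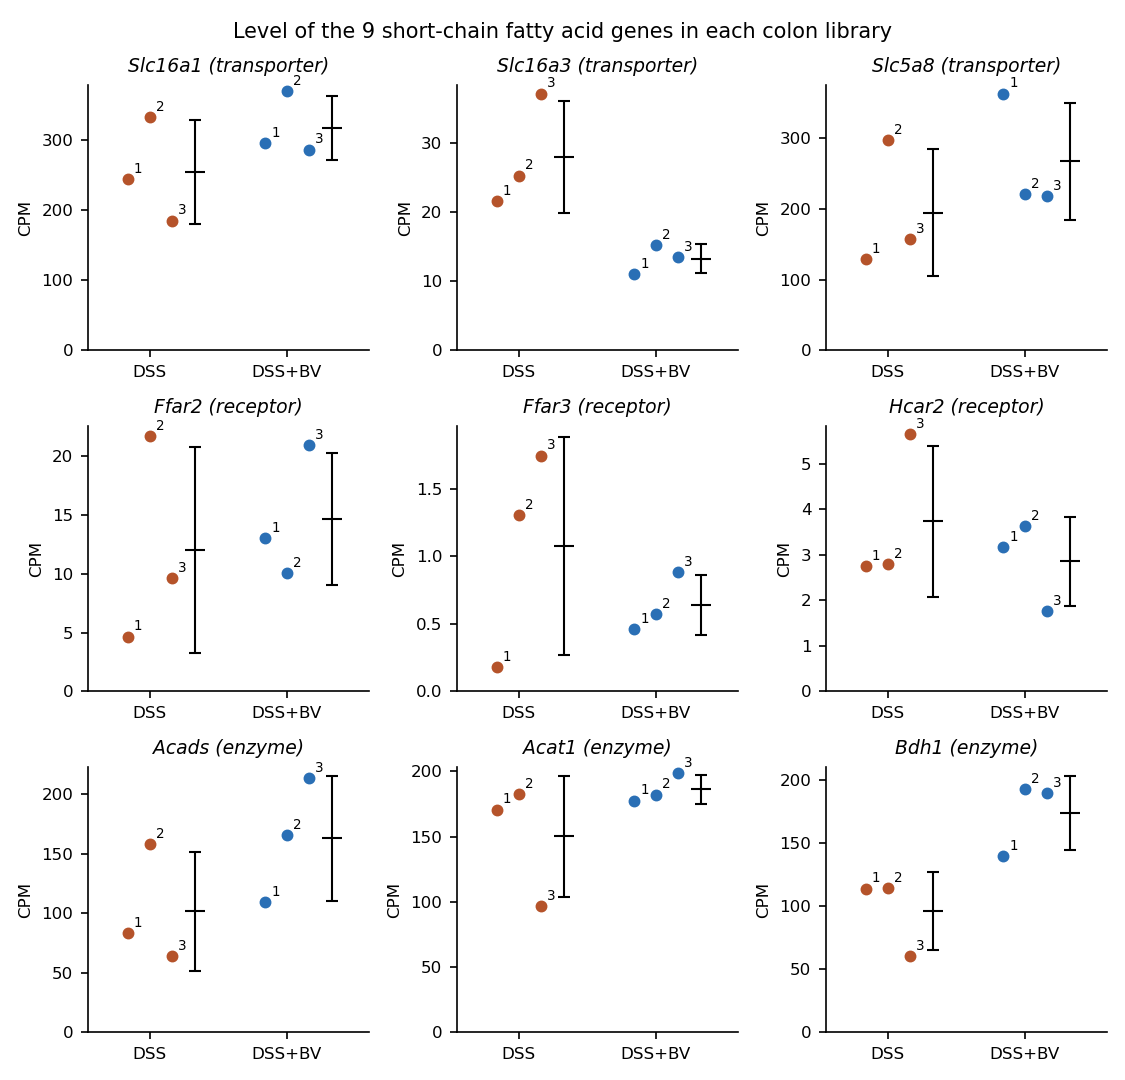
Level of each gene (y axis, CPM, each panel starting at 0) in the 3 DSS and 3 DSS+BV libraries. Points are mice with their replicate number, the bar beside them is the mean with its SD; *Slc16a3* is lower and *Bdh1* higher in all DSS+BV mice than in all DSS mice, and the other 7 panels overlap.

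Of the transporters, the lactate exporter *Slc16a3* was lower in every DSS+BV mouse, while the uptake carriers *Slc16a1* and *Slc5a8* had higher means with overlapping groups. *Slc16a3* (Entrez gene 80879; GRCm38.p6 chromosome 11, 120948484 to 120959000, plus strand) encodes MCT4, a proton-coupled carrier known for releasing lactate from glycolytic cells. It stood at 21.7, 25.3 and 37.2 CPM under DSS alone against 11.1, 15.2 and 13.5 CPM with the bacterium. The highest DSS+BV mouse lay under the lowest DSS mouse. Means were 28.1 ± 8.13 CPM in the DSS mice and 13.3 ± 2.08 CPM in the DSS+BV mice (SD, n = 3). In edgeR's quasi-likelihood test this gave a log2 fold change of -1.08 (standard error 0.252, 95% interval -1.68 to -0.48) with an adjusted p of 0.245. DESeq2 gave a fold change of -1.06 with an adjusted p of 0.0173, within a range of 0.0173 to 0.870 over the 13 alternatives. The gene was therefore called by one count model and not by the other. With 1 library left out in turn, the fold change lay between -1.24 without DSS 1 and -0.82 without DSS 3.

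*Slc16a1* (Entrez gene 20501; GRCm38.p6 chromosome 3, 104638664 to 104658462, plus strand) encodes MCT1, the proton-coupled carrier through which colonocytes take up butyrate. Its level was 244, 332 and 185 CPM under DSS alone against 295, 369 and 286 CPM with the bacterium. DSS 2 lay above 2 of the 3 DSS+BV mice, and the groups overlapped. The log2 fold change was 0.32 (standard error 0.241, 95% interval -0.25 to 0.89, adjusted p = 0.614, edgeR). It was 0.14 without DSS 3, 0.58 without DSS 2 and -0.10 when scaled on the epithelium genes. *Slc5a8* (Entrez gene 216225; GRCm38.p6 chromosome 10, 88885992 to 88929515, plus strand) encodes the sodium-coupled monocarboxylate transporter of the apical colonocyte membrane. It stood at 130, 297 and 157 CPM under DSS alone against 364, 221 and 218 CPM with the bacterium. The highest DSS+BV value came from DSS+BV 1, and DSS 2 exceeded the other two. With a log2 fold change of 0.46 (standard error 0.363, 95% interval -0.41 to 1.33, adjusted p = 0.631, edgeR), it had 0.91 without DSS 2 and 0.19 without DSS+BV 1.

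*Slc16a1* and *Slc16a3* belong to one family, and the ratio of their counts within a library does not depend on how libraries are scaled. *Slc16a1* had 11.3, 13.1 and 4.96 counts for each count of *Slc16a3* under DSS alone, against 26.6, 24.2 and 21.1 with the bacterium. All 3 DSS+BV mice lay above all DSS mice, and they differed little from one another. The mean log2 ratio was 3.17 ± 0.755 against 4.58 ± 0.168 (SD, n = 3 mice each), a 2.65-fold shift (two-sided exact permutation test, p = 0.1, the smallest that 3 against 3 mice allow, and 0.2 after Benjamini-Hochberg adjustment over 4 ratios). With 1 library left out, the difference in log2 ratio ranged from 0.97 without DSS 3 to 1.68 without DSS 2. The ratio of *Slc5a8* to *Slc16a1* differed by 0.16 log2 units with overlapping groups (exact permutation p = 0.8).

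The promoter windows of this pair are shown because one member of the pair was lower in all DSS+BV mice and the other, of the same family, was not. Each runs from 250 bases before a RefSeq start to 50 after it (GRCm38.p6, plus strand, 5′ to 3′), and capitals mark ACGTG, the core of the hypoxia response element, on either strand.
*Slc16a1*, chr3:104638414-104638713: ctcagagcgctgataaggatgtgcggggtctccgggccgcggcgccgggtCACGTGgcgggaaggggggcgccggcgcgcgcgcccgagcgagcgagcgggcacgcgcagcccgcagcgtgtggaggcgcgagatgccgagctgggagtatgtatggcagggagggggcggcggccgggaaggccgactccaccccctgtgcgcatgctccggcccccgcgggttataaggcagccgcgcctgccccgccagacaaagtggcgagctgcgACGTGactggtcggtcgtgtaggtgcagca
*Slc16a3*, chr11:120948817-120949116: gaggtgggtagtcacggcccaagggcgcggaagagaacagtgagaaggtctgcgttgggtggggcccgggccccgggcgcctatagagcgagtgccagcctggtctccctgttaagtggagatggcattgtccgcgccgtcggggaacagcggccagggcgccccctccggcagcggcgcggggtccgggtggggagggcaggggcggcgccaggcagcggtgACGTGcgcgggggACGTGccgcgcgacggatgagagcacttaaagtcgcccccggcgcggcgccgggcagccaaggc
The *Slc16a3* window holds 2 copies, at bases -27 and -14 with the start as base 0. That start lies inside the gene span given above, downstream of its first base, and gene counts do not say which start was used. The *Slc16a1* window holds 1 copy at base 20 and a CACGTG at base -200, which reads as ACGTG on both strands. At least 1 match stood in 19.6% of the 32851 windows of this length in the table, and at least 2 matches, counting both strands, in 8.21%. A single CACGTG counts as 2 matches in this share, and 7.15% of the windows hold a CACGTG. The 8.21% is therefore no background for the 2 separate copies of *Slc16a3*. Both windows are rich in G and C, at 73.3% for *Slc16a3* and 73.7% for *Slc16a1*.

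Markers of some other cell types were lower along with *Slc16a3*. The sums of the goblet cell, T cell and smooth muscle genes overlapped, with median log2 fold changes of -0.065, 0.0080 and -0.23. Of 8 neutrophil genes, 7 were lower in every DSS+BV mouse and 6 were called lower. Their sum overlapped, at between 216 and 1027 CPM against between 31.2 and 326 CPM, and so did the most abundant of them, *Ly6g*, at 485, 76.1 and 854 CPM under DSS alone against 303, 215 and 19.1 CPM with the bacterium. *S100a8*, a subunit of the neutrophil protein calprotectin named here after its values were seen, stood at 46.3, 30.4 and 39.1 CPM under DSS alone against 1.85, 1.47 and 2.09 CPM with the bacterium. The 6 fibroblast genes summed to between 3670 and 4039 CPM against between 1305 and 1923 CPM, without overlap. The 5 endothelium genes were also lower without overlap in sum, at between 295 and 377 CPM against between 196 and 261 CPM, with 3 of them separate on their own. The 10 macrophage and monocyte genes overlapped, at between 884 and 2046 CPM against between 565 and 1418 CPM. The part of these cells in the *Slc16a3* difference was not tested. Scaled on the epithelium genes, *Slc16a3* had a log2 fold change of -1.47 and an adjusted p of 0.0430 in edgeR. It was then 1 of 9 called lower, against 1.78% of all tested genes, with none called higher (0.00686%), while the median of all tested genes moved from -0.01 to -0.42.

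The receptors were expressed at low levels, and no difference between the groups exceeded the spread among mice. *Ffar2* (Entrez gene 233079; GRCm38.p6 chromosome 7, 30818031 to 30823775, minus strand) encodes GPR43, a receptor for acetate and propionate found on neutrophils and enteroendocrine cells. It was at 4.67, 21.7 and 9.67 CPM under DSS alone against 13.1, 10.1 and 20.9 CPM with the bacterium. Its values spread 4.65-fold within the DSS group, with both the lowest and the highest library there. The log2 fold change was 0.29 (standard error 0.564, 95% interval -1.06 to 1.64, adjusted p = 0.858, edgeR). The value was -0.09 without DSS 1, -0.05 without DSS+BV 3 and 1.04 without DSS 2, so its direction rested on single mice.

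*Ffar3* (Entrez gene 233080; GRCm38.p6 chromosome 7, 30854330 to 30856178, minus strand) lies near *Ffar2* and encodes the related receptor GPR41. It had only 3, 21 and 30 counts under DSS alone against 7, 9 and 14 counts with the bacterium. The DSS mice spread 9.73-fold. Its log2 fold change was -0.74 with a 95% interval from -2.55 to 1.06 (adjusted p = 0.709, edgeR), and it was -1.24 without DSS 1 and -0.20 without DSS 3. *Hcar2* (Entrez gene 80885; GRCm38.p6 chromosome 5, 123863570 to 123865516, minus strand) encodes GPR109A, the receptor for niacin, 3-hydroxybutyrate and butyrate on adipocytes, myeloid cells and epithelium. It stood at 2.75, 2.80 and 5.65 CPM under DSS alone against 3.17, 3.63 and 1.77 CPM with the bacterium. DSS 3 was the highest library and also held the most adipocyte and macrophage RNA, at 189 CPM over 7 adipocyte genes against 41.5 to 88.1 CPM in the other libraries, and its part was not tested. The log2 fold change of *Hcar2* was -0.39 (95% interval -1.42 to 0.64, adjusted p = 0.734, edgeR), -0.59 without DSS+BV 2 and 0.04 without DSS 3. *Hcar2* had 0.590, 0.129 and 0.584 counts for each *Ffar2* count under DSS alone, against 0.242, 0.361 and 0.0846 with the bacterium. These ratios overlapped (exact permutation p = 0.5), and their mean log2 difference of -0.86 lay between -1.59 without DSS 2 and -0.26 without DSS+BV 3 with 1 library left out.

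**Figure D2:**
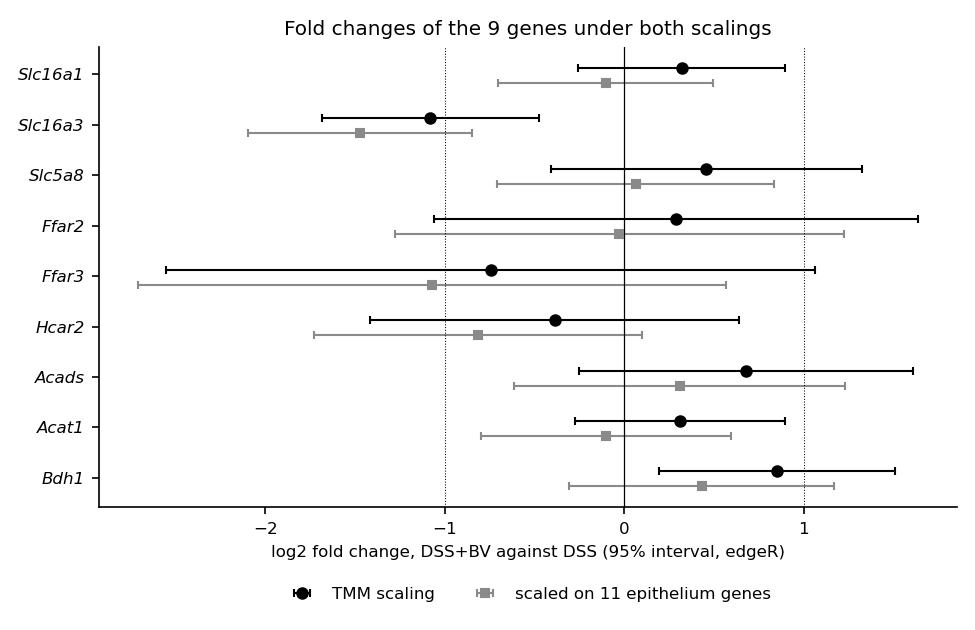
Log2 fold change of each gene, DSS+BV against DSS (x axis), with its 95% interval from edgeR; black circles use TMM factors, grey squares libraries scaled on the 11 epithelium genes, and dotted lines mark -1 and 1. Only the *Slc16a3* interval leaves out 0 under both scalings, and the *Bdh1* interval does so with TMM factors alone.

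The enzymes all had higher means in the DSS+BV group, and *Bdh1* was higher in every DSS+BV mouse. The 7 surface colonocyte markers summed to between 6005 and 8783 CPM under DSS alone and to between 10461 and 17778 CPM with the bacterium, although none of the 7 was separate on its own. *Car1* made up most of the sum in DSS+BV 2 and DSS+BV 3, at 10453 and 8702 CPM, against 924 CPM in DSS+BV 1. *Aqp8* and *Car4* had log2 fold changes of -1.03 and -1.10, and the others were above 0. The part of these markers in the enzyme values was not tested. *Bdh1* (Entrez gene 71911; GRCm38.p6 chromosome 16, 31422297 to 31458901, plus strand) encodes the mitochondrial dehydrogenase that interconverts acetoacetate and 3-hydroxybutyrate, the last step in making the main circulating ketone body. It stood at 114, 115 and 60.7 CPM under DSS alone against 140, 193 and 189 CPM with the bacterium. The lowest DSS+BV mouse lay above the highest DSS mouse. Means were 96.4 ± 30.9 CPM in the DSS mice and 174 ± 29.7 CPM in the DSS+BV mice (SD, n = 3). By edgeR the log2 fold change was 0.85 (standard error 0.276, 95% interval 0.19 to 1.51) with an adjusted p of 0.341. DESeq2 gave 0.87 with an adjusted p of 0.110, within a range of 0.0935 to 0.903 over the alternatives, and the gene was called under none of them. An exon of the gene model *Gm15743* overlaps its exons on the opposite strand, and the strand setting of the counting is not given in the sources used here. Scaled on the epithelium genes, the fold change was 0.43 (95% interval -0.31 to 1.17, adjusted p = 0.382, edgeR).

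*Bdh1* has 2 start windows in the table, shown because it was the member that was higher in all DSS+BV mice, and gene counts do not say which start was used. Both are on the plus strand of GRCm38.p6, with ACGTG in capitals if present.
*Bdh1*, chr16:31422047-31422346: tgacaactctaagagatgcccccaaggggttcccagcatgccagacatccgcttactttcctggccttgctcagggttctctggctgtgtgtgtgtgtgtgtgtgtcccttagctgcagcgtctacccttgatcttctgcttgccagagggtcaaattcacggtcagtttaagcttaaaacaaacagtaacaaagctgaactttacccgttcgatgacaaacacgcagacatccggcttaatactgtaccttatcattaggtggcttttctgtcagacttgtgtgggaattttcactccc
*Bdh1*, chr16:31428503-31428802: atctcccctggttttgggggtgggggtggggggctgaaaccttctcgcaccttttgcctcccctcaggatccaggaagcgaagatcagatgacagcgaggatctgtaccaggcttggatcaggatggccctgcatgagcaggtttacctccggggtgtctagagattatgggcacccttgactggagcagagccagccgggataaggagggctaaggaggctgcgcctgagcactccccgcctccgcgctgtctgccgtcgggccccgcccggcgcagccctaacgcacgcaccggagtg
Neither window contains ACGTG. The window at the start of the gene has 48.3% G and C, and the downstream window has 63.7% and 1 GC box, GGGCGG, on the minus strand, a motif found on either strand in 35.7% of all windows.

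*Acads* (Entrez gene 11409; GRCm38.p6 chromosome 5, 115110299 to 115119346, minus strand) encodes short-chain acyl-CoA dehydrogenase, which starts the oxidation of butyryl-CoA. It was at 83.2, 158 and 63.8 CPM under DSS alone against 109, 166 and 214 CPM with the bacterium. DSS 2 lay above DSS+BV 1, and the 3 lowest libraries were DSS 3, DSS 1 and DSS+BV 1. EdgeR gave a log2 fold change of 0.68 (standard error 0.390, 95% interval -0.25 to 1.61, adjusted p = 0.517). It ran from 0.43 without DSS 3 to 1.16 without DSS 2 when 1 library was left out. Without DSS 2 and DSS+BV 1, 1 of the 9, *Acads*, was called higher (log2 fold change 1.40, adjusted p = 0.0377 in edgeR, 0.0377 to 0.924 over the alternatives), against 1.92% of all tested genes higher and 2.27% lower, but those libraries were picked from the data. *Acat1* (Entrez gene 110446; GRCm38.p6 chromosome 9, 53580522 to 53610350, minus strand) encodes the mitochondrial acetoacetyl-CoA thiolase, which serves both ketone body formation and use. It was at 171, 183 and 96.9 CPM under DSS alone against 178, 182 and 199 CPM with the bacterium. All mice but DSS 3 lay close together. EdgeR put the difference at 0.31 log2 units (standard error 0.245, 95% interval -0.27 to 0.90, adjusted p = 0.630). The value was 0.07 without DSS 3, 0.50 without DSS 2 and -0.10 with epithelium scaling.

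The ratio of *Bdh1* to *Acat1* separated the groups, as *Bdh1* alone already did. *Bdh1* had 0.667, 0.627 and 0.627 counts for each *Acat1* count under DSS alone, against 0.786, 1.06 and 0.954 with the bacterium. DSS 2 and DSS 3 had nearly the same ratio, DSS 1 lay slightly above them, and all DSS+BV mice were higher. The mean log2 ratio was -0.64 ± 0.052 against -0.11 ± 0.216 (SD, n = 3 mice each), a 1.45-fold shift (two-sided exact permutation p = 0.1, the smallest possible, 0.2 after adjustment over 4 ratios), and the difference ranged from 0.44 to 0.65 with 1 library left out.

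**Figure D3:**
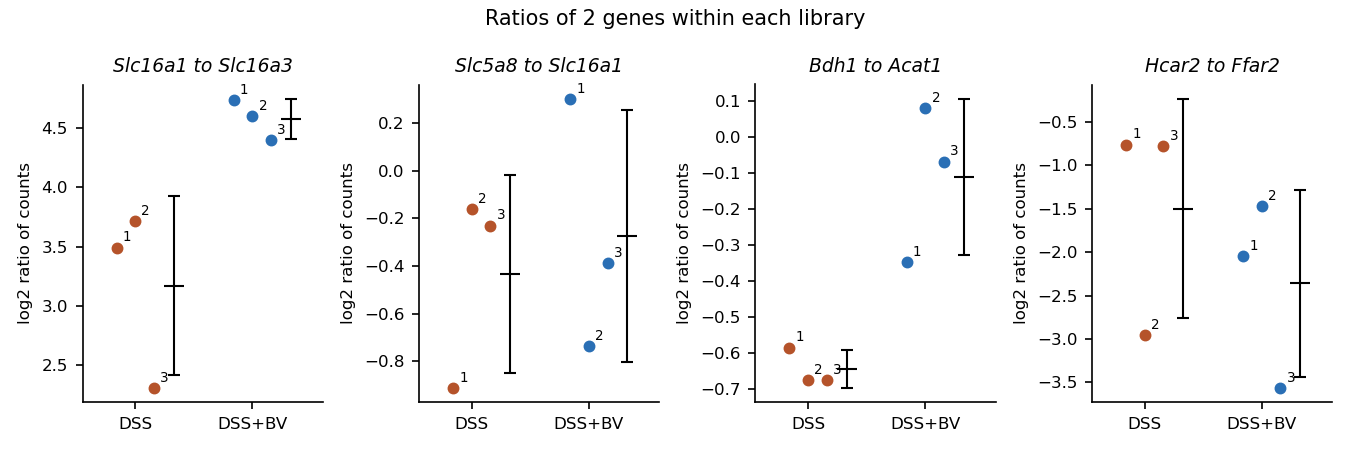
Log2 ratio of the counts of 2 genes within each library (y axis, 1 panel per ratio, axes not starting at 0), points with replicate numbers and the group mean with its SD. *Slc16a1* to *Slc16a3* and *Bdh1* to *Acat1* are higher in all 3 DSS+BV mice, and the other 2 ratios overlap.

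Levels can be compared between genes only per length. Per kilobase of exon in GENCODE M21, CPM averaged over the 6 libraries was 64.4 for *Slc16a1*, 58.3 for *Acads*, 44.7 for *Acat1*, 43.4 for *Slc5a8* and 34.8 for *Bdh1*. *Ffar2* at 4.78, *Slc16a3* at 3.89, *Hcar2* at 1.71 and *Ffar3* at 0.464 followed. *Slc16a1* exceeded *Acads* in 5 of 6 libraries, while *Acat1* and *Slc5a8* exchanged places in 3 of 6 and could not be ordered. *Bdh1* exceeded *Ffar2* in 6 of 6, so uptake carriers and enzymes formed one range and receptors with the lactate exporter a lower one. *Ffar2* exceeded *Slc16a3* in 4 of 6. Part of the order of the group means differed between the groups, but single mice did not all follow it. *Slc16a3* averaged 5.28 CPM per kilobase in the DSS mice, above *Ffar2* at 4.31, and 2.50 in the DSS+BV mice, below *Ffar2* at 5.26. In DSS 2, however, *Ffar2* lay above *Slc16a3*, at 7.78 against 4.76. *Slc16a1* averaged 57.3 against 44.8 for *Acads* in the DSS mice, and 71.5 against 71.8 in the DSS+BV mice. Only in DSS+BV 3 did *Acads* lie above *Slc16a1*, at 94.2 against 64.6.

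Genes around these steps were read from 7 lists with 69 tested genes. None was called by edgeR. At an unadjusted p under 0.05 there were 7 on the higher side (3.4% of all tested genes) and 4 on the lower side (9.12%), and DESeq2 called 1, *Slc16a9*, higher (0.291%). Groups did not overlap for 4 genes on the lower side (11.3% over all tested genes) and 7 on the higher side (6.37%). The lower ones were *Gpr84*, *Acss3*, *Angptl4* and *Pdk1*, and the higher ones were *Slc16a7*, *Slc16a9*, *Aacs*, *Mmaa*, *Mmab*, *Hnf4a* and *Cdx1*, of which all but *Slc16a9*, *Aacs* and *Hnf4a* are named after their values were seen.

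Among 10 tested carriers and partners, 8 fold changes were above 0, with a median log2 fold change of 0.40, and 0.04 when scaled on the epithelium genes. *Slc16a9*, a carnitine-transporting relative of MCT1, stood at 5.63, 8.39 and 6.46 CPM under DSS alone against 8.57, 21.4 and 29.5 CPM with the bacterium. DSS+BV 1 lay just above DSS 2. Its log2 fold change of 1.54 carried a standard error of 0.451 (adjusted p = 0.321 in edgeR and 0.0378 in DESeq2, from 0.0325 to 0.903 over the alternatives). *Bsg*, the chaperone that brings MCT1 and MCT4 to the membrane, had a log2 fold change of 0.37, the chloride and bicarbonate exchanger *Slc26a3* 0.18 and the sodium and proton exchanger *Slc9a3* 0.47, none of them called. Single libraries moved them: *Bsg* was 0.16 without DSS+BV 3 and 0.56 without DSS+BV 1, *Slc26a3* was -0.11 without DSS+BV 1 and 0.62 without DSS+BV 3, and *Slc9a3* was -0.23 without DSS+BV 3 and 1.26 without DSS 2. Among 7 tested receptors and partners the median was 0.08, and -0.35 with epithelium scaling. The long-chain fatty acid receptor *Ffar4* had 0.50, and the arrestins *Arrb1* and *Arrb2* -0.01 and -0.64. *Ffar4* was 0.20 without DSS+BV 3 and 0.82 without DSS 3, *Arrb2* was -0.21 without DSS 3 and -1.05 without DSS+BV 1, and *Arrb1* was -0.16 without DSS+BV 3 and 0.12 without DSS 2. *Gpr84*, a medium-chain fatty acid receptor of activated myeloid cells, was at 0.898, 0.622 and 1.92 CPM under DSS alone against 0.132, 0.319 and 0.126 CPM with the bacterium, a low level in every library.

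Of 18 tested genes of acyl activation and mitochondrial beta-oxidation, 16 had fold changes above 0, with a median of 0.35, and none was called. The most abundant were *Cpt1a* (log2 fold change 0.21), *Hadha* (0.24) and *Hadhb* (0.33), which encode the gate to mitochondrial fatty acid import and both subunits of the trifunctional protein. Without DSS+BV 3 they stood at 0.069, 0.062 and 0.17, and without DSS 2 at 0.43, 0.49 and 0.66. The exceptions, named after their values were seen, were *Acadl* and *Acss3*, a propionate-activating enzyme, which stood at 3.29, 2.74 and 4.13 CPM under DSS alone against 1.85, 1.47 and 1.14 CPM with the bacterium. For 14 of the 18 genes the 3 lowest libraries were DSS 1, DSS 3 and DSS+BV 1, which held for 11.4% of all tested genes and for 2 of the 9 members, *Acads* and *Acat1*. It also held for 4 of 6 propionate catabolism genes and 5 of 10 carriers and partners, and for 0 of 10 glycolysis and lactate genes. These 3 libraries were picked from the data. With epithelium scaling the median of the 18 genes changed sign, to -0.028. DSS 1, DSS 3 and DSS+BV 1 also had the highest sums of 6 genes marking distal colon position. These were 344, 192 and 340 CPM, against at most 166 CPM in the other libraries. *Hoxb13* made up most of these 3 sums. The other position genes are named after their values were seen. *Hoxd13* and *Hoxd12* split alike, while *Hoxa13*, *Hoxd11* and *Hoxd10* did not, and *Hoxa13* was highest in DSS 2, at 21.0 CPM. The sums of the 6 B and plasma cell genes also split this way, at 656, 1613 and 1119 CPM against at most 552 CPM. So did the macrophage and T cell sums, although some single genes of these lists did not. The neutrophil sum did so through *Ly6g* alone, and the other 7 neutrophil genes were lower in every DSS+BV mouse. The part of colon position and of these cells in the beta-oxidation values was not tested.

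**Figure D4:**
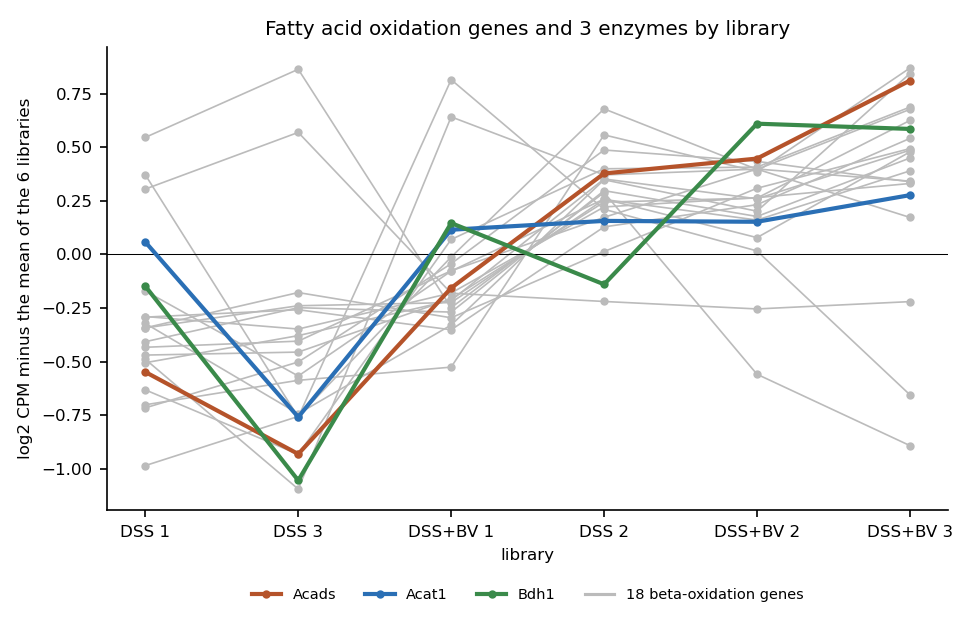
Log2 CPM minus the mean of the 6 libraries (y axis) for *Acads*, *Acat1*, *Bdh1* and, in grey, 18 beta-oxidation genes; libraries are set side by side with DSS 1, DSS 3 and DSS+BV 1 on the left, and lines only join the points of 1 gene. Most genes are lowest in these 3 libraries, which belong to both groups.

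Among 6 other ketone body enzymes the median log2 fold change was 0.53, and 0.12 with epithelium scaling. *Oxct1*, which commits acetoacetate to use as fuel, had a log2 fold change of 0.21, which was -0.021 without DSS+BV 1 and 0.46 without DSS+BV 3. *Aacs*, the cytosolic acetoacetyl-CoA synthetase that feeds lipid synthesis, was at 83.8, 68.6 and 34.8 CPM under DSS alone against 126, 116 and 106 CPM with the bacterium. Its groups did not overlap, with a log2 fold change of 0.90 (adjusted p = 0.356, edgeR).

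Propionate catabolism had 6 of 6 fold changes above 0 with a median of 0.46, and 0.058 with epithelium scaling. *Pccb* and *Pcca*, the subunits of propionyl-CoA carboxylase, had log2 fold changes of 0.50 and 0.42, and the methylmalonyl-CoA mutase gene *Mmut* 0.35. With 1 library left out, *Pccb* lay between 0.25 without DSS 1 and 1.15 without DSS 2, *Pcca* between 0.16 without DSS 3 and 1.04 without DSS 2, and *Mmut* between 0.20 and 0.63 without the same libraries as *Pcca*. Of 12 regulators, 9 were above 0, with a median of 0.46, and 0.062 with epithelium scaling. *Hnf4a*, a nuclear receptor of epithelial identity, stood at 514, 708 and 525 CPM under DSS alone against 803, 1019 and 908 CPM with the bacterium. The groups did not overlap, and edgeR put the difference at 0.64 log2 units with a standard error of 0.194 (adjusted p = 0.329), and at 0.24 when scaled on the epithelium genes. *Klf4* had 0.23, and 0.082 without DSS 1 or 0.42 without DSS+BV 3. *Hif1a* had -0.47, and -0.060 without DSS+BV 3 or -1.09 without DSS+BV 1. *Angptl4*, a lipase inhibitor and target of PPAR receptors, was at 35.1, 34.5 and 61.0 CPM under DSS alone against 3.43, 12.2 and 25.0 CPM with the bacterium. Glycolysis and lactate genes went the other way in sign, with 9 of 10 below 0 and a median of -0.23, and -0.67 with epithelium scaling. The most abundant, *Ldha*, *Pkm* and *Eno1*, had log2 fold changes of -0.0011, -0.33 and -0.19, and that of lactate dehydrogenase A, *Ldha*, took either sign with the scaling. *Eno1* was -0.069 without DSS 1 and -0.35 without DSS 2.

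**Figure D5:**
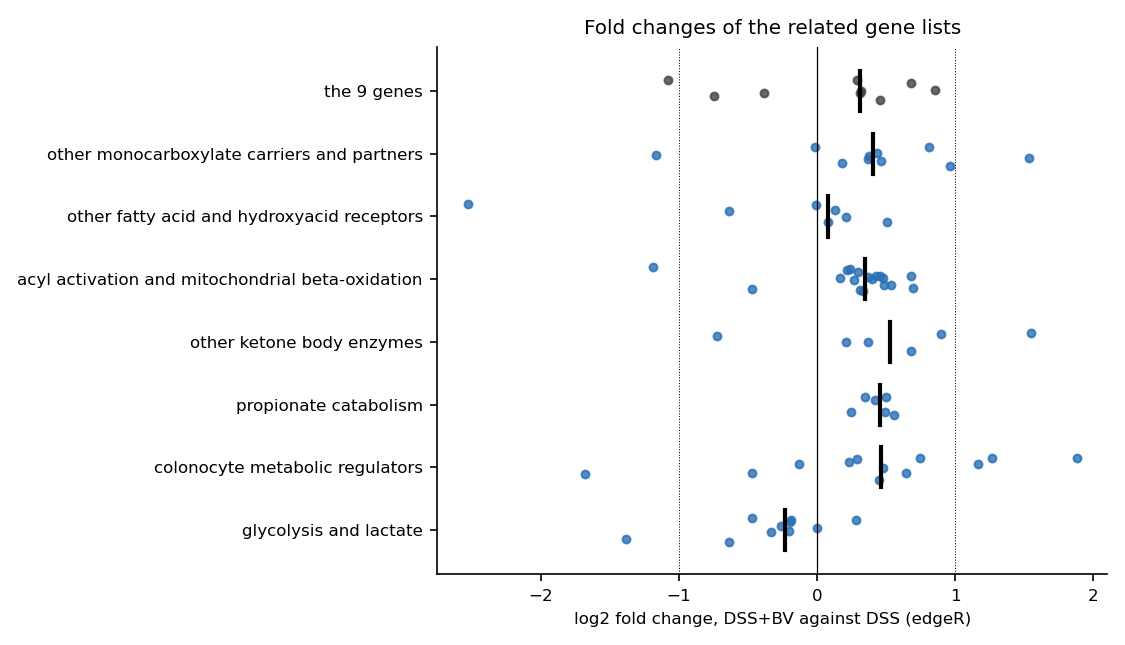
Log2 fold change, DSS+BV against DSS (x axis), of the 9 genes and of the tested genes of 7 related lists, each point 1 gene with vertical scatter for legibility and the bar the median of the list; dotted lines mark -1 and 1. Medians lie between 0.08 and 0.53 except for glycolysis and lactate at -0.23.

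For each of the 9 genes, the 3 tested genes with the most similar pattern were found by Pearson's r of log2 CPM over the 6 libraries, which share their scaling and their groups. With 14579 genes and 6 libraries all 27 had an r between 0.978 and 0.999, and none was called. *Slc16a3* was followed by *Slc25a27* (r = 0.995), *Lrrc27* and *Pde7b*. The 3 closest to *Bdh1* were *Polr3c* (r = 0.998), *Dld* and *Myo1d*, of which *Dld* encodes a subunit shared by mitochondrial dehydrogenase complexes. *Acads* was closest to *Rtkn* (r = 0.998), *Slc39a8* and *Dcun1d1*, and *Acat1* to *Pgm3* (r = 0.995), *Zfp609* and *Vps26b*. *Slc16a1* had *Rpl37rt* (r = 0.991), *Slc35e2* and *Afg1l*, and *Slc5a8* had *D3Ertd751e* (r = 0.992), *Gm46731* and *Gdpd1*. Among the receptors, *Ffar2* was closest to *Ctnnbip1* (r = 0.999), *Hipk4* and *Hpd*, *Ffar3* to *Wwp2* (r = 0.996), *Ift81* and *Iqce*, and *Hcar2* to *Rbpms2* (r = 0.988), *Retn* and *Max*. *Retn* encodes the adipocyte and myeloid hormone resistin. No member was among the 3 closest genes of another.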

How the data were processed

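Colon RNA of 3 DSS and 3 DSS+BV mice was sequenced on a DNBSEQ-T7. The authors quantified genes with RSEM and deposited expected counts (estimated counts), unscaled between libraries. The submitters' processing notes name HISAT2 2.1.0, Bowtie2 2.2.5, RSEM 1.2.8 and GRCm38.p6. Libraries were grouped by their titles. Values were not whole for 1573 genes, none of them a member, and were rounded. Genes were kept with filterByExpr (minimum count 10, minimum total 15), scaled with TMM factors and tested with edgeR 4.0.16 in R 4.3.3, without covariates, with Benjamini-Hochberg adjustment over 14579 genes. Log2 CPM used a prior count of 2. The scripts were tested on simulated data. Members and lists were chosen with earlier results of these data known. Named genes are the members, the 3 most abundant and any called gene of each list, the 3 genes most like each member and the most abundant marker. Coordinates and promoter sequences are from RefSeq on GRCm38.p6, with windows for 7 of the 9 members. Pairs of mice within a group differed by 44.7 to 122.7 chi-square units per degree of freedom, so none was a duplicate. Alternatives were DESeq2 1.42.0, other scalings and filters, a replicate block and libraries left out, and a call by adjusted p alone was added after the data were seen. Some results of the ketone body list are not reported here.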

Additional observations from a re-analysis of the deposited data

How the results depend on the processing

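No member was called higher or lower with RLE factors, upper-quartile factors, a looser filter that keeps each gene with a count, the replicate number as a block, the adjusted p alone, or with 1 library left out in turn (0 to 0 calls). DESeq2 called 1 member lower and 1 list gene higher, and scaling on the epithelium genes called 1 member lower, in both cases *Slc16a3* as the member. Without DSS 2 and DSS+BV 1 together, 1 member, *Acads* (log2 fold change 1.40, adjusted p = 0.0377 in edgeR, 0.0377 to 0.924 over the alternatives), and 12 of 69 list genes were called higher, against 1.92% of all tested genes. Those 2 libraries were chosen because each deviated from its group mean in the direction of libraries of the other group, so these calls are not independent of the data, and the cause was not tested. Of 117 alternative values of members, 108 kept their side of the threshold and their direction. Scaled on the epithelium genes, which moves the median of all tested genes by -0.42, the signs turned for *Slc16a1* (-0.10), *Ffar2* (-0.026), *Acat1* (-0.10), *Cpt1a* (-0.16), *Hadha* (-0.14), *Hadhb* (-0.043), *Klf4* (-0.19), *Mmut* (-0.046), *Oxct1* (-0.23) and *Slc26a3* (-0.29). Genes near 0 turned elsewhere: *Ldha* with DESeq2 (0.020), RLE (0.010), the looser filter (0.030) and the block (0.0091), *Arrb1* with DESeq2 (0.0097), RLE (0.00038), the looser filter (0.016) and without both libraries (0.23), *Slc26a3* with the block (-0.040) and without both libraries (-0.0012), and *Oxct1* without both (-0.13). With 1 library left out, the ranges that crossed 0 were -0.089 to 1.04 for *Ffar2*, -0.59 to 0.040 for *Hcar2*, -0.16 to 0.12 for *Arrb1*, -0.11 to 0.10 for *Ldha*, -0.021 to 0.46 for *Oxct1*, -0.11 to 0.62 for *Slc26a3*, -0.23 to 1.26 for *Slc9a3* and -0.13 to 0.39 for the ratio of *Slc5a8* to *Slc16a1*. With the replicate block, *Slc16a3* had -1.05 (adjusted p = 0.340, edgeR) and *Bdh1* 0.89 (adjusted p = 0.439), and the block changed no call of a member. The numbers share no stated pairing, and the deviations of same-numbered libraries correlated at 0.267, 0.255 and -0.296. *Ffar3* rests on 3 to 30 counts per library.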
